A study of Rattus norvegicus with 6 samples.

Results

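The genes described here are 10 genes of tumor necrosis factor (TNF) signaling and of the NF-kB pathway that it activates: Tnf, Tnfrsf1a, Tnfrsf1b, Nfkb1, Nfkb2, Relb, Nfkbia, Nfkbiz, Tnfaip3 and Birc3. They were found by gene symbol in a deposited table of 32623 rat genes, and each of the 10 had 1 row in it. The table came from RNA sequencing of myocardial tissue of 3 sham-operated rats and 3 rats with ischemia, in which the left anterior descending coronary artery was tied around a piece of tubing. All rats were described as male and wild type, were anesthetized and ventilated, and underwent left thoracotomy; no ligation is described for sham rats. The labels give 30 min for both groups and a replicate number from 1 to 3 for each sample. The strain, the age and the part of the heart that was taken are not given in the sources used here. The comparison addresses which genes differ in heart tissue once its blood supply has been cut for that time.

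TNF is a cytokine made mainly by macrophages and other immune cells, and in the injured heart also by other cells of the tissue. When it binds its receptors, a kinase complex marks the inhibitor IkB for destruction, and NF-kB dimers enter the nucleus and switch on inflammatory genes. Among the genes that NF-kB switches on are its own subunits and inhibitors and enzymes that edit ubiquitin chains at the receptor complex, so the pathway holds several feedback loops.

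Ischemia samples had higher values of most of these genes, but by unequal amounts and with unequal agreement between animals. All 10 log2 fold changes of ischemia over sham were positive, from 0.36 for Nfkb1 to 2.27 for Birc3, with a median of 1.31. The median over all 13964 genes tested was -0.0015, and 49.9% of them were positive. With the quasi-likelihood test of edgeR, a count model fitted across all tested genes, Tnfrsf1a and Relb were higher at an adjusted p under 0.05 and 0 of the 10 genes were lower. Over all tested genes 5.18% were called higher and 1.53% lower. In 7 of the 10 genes each ischemia sample lay above each sham sample, against 23.6% of all tested genes. The same 7 were higher at an unadjusted edgeR p under 0.05, against 18.2% of all tested genes that were higher at that p. Tnf itself, Nfkb1 and Tnfaip3 were the genes whose groups overlapped. DESeq2, another count model, called 7 of the 10, all but Tnf, Nfkb1 and Tnfaip3, higher at an adjusted p under 0.05, against 14.9% of the genes it tested.

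The libraries were of like depth, and their heart muscle marker levels differed. The samples held 68529126 to 79591989 counts each, at which 3 counts equal 0.0377 to 0.0438 CPM (counts scaled to library size), counting error only. The labels do not say whether the samples of a group came from different litters or days, so p-values measure the spread between these samples. Summed FPKM (fragments scaled by gene length and sequencing depth) of 8 ventricular markers was 26616, 42187 and 25102 in sham and 24500, 12582 and 23688 in ischemia, and that of 4 atrial markers 48341, 214.87 and 39203 in sham and 9609.8, 2078.1 and 1279.2 in ischemia. Sham replicate 1 had 161 counts on chromosome Y against 3218 to 8970 in the other samples, although all rats were described as male. The part of these differences in the results for the 10 genes was not tested, and the labels name no batch. With sham replicate 1, 2 or 3 or ischemia replicate 3 left out, edgeR called 0 of the 10 genes and 0 of all genes, while 7, 8, 7 and 7 of the 10 and 3090, 3809, 3255 and 3020 of all tested genes had an unadjusted p under 0.05. Without ischemia replicate 1 it called 6 of the 10 higher, beside 1490 of all 13964 tested genes, and without ischemia replicate 2 it called 2, beside 462.

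**Figure D1:**
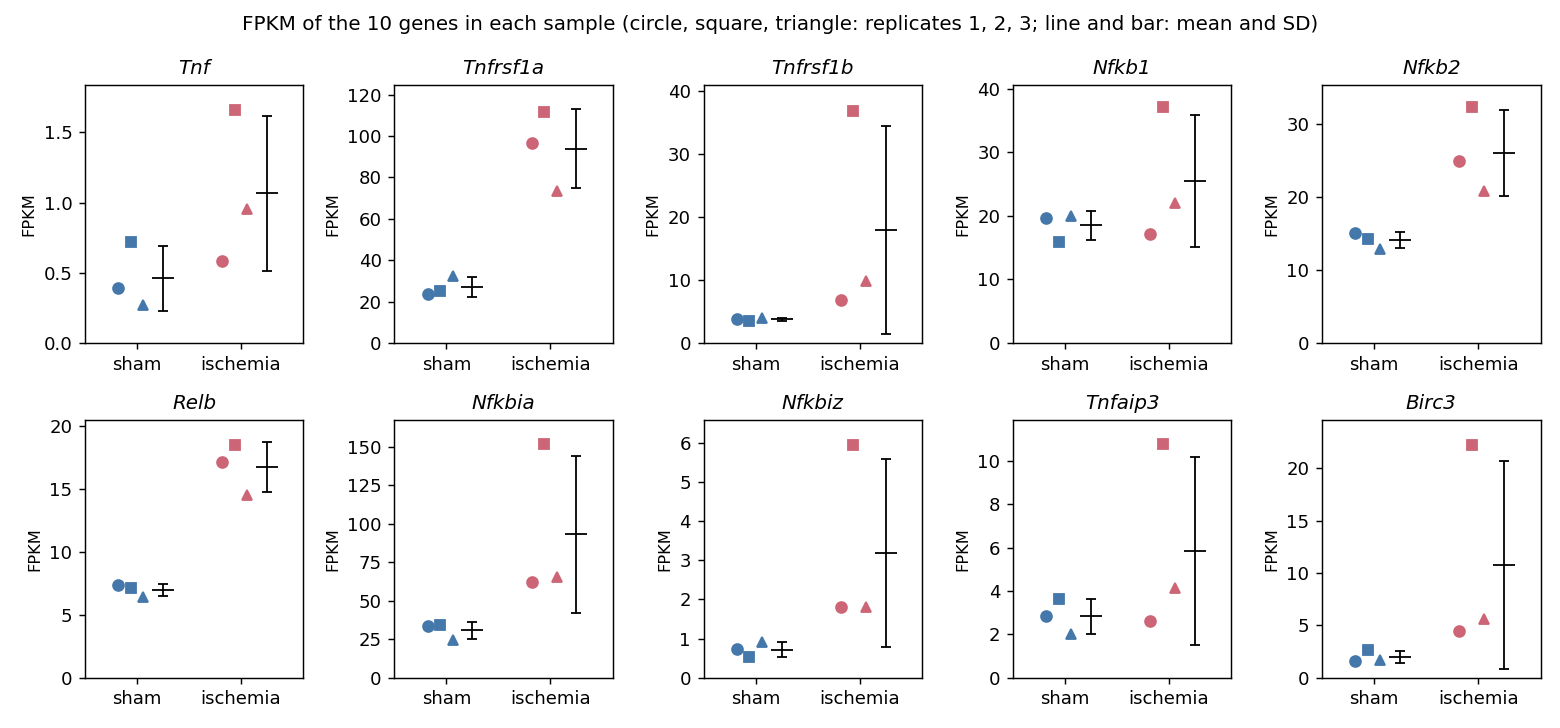
FPKM of each of the 10 genes (vertical axes, linear and starting at 0) in 3 sham samples (blue) and 3 ischemia samples (red), with circles, squares and triangles for replicates 1, 2 and 3 and a line and bar for the mean and SD. In each panel the highest point is the square of ischemia replicate 2; in Tnfrsf1a and Relb the other ischemia samples lie near it, and in Tnfrsf1b and Birc3 they lie far below it.

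Promoter sequences are shown because NF-kB binds a short DNA element, the kappa B site, in promoters of genes that it controls. RefSeq sequences of the rat assembly GRCr8 were matched by symbol for 8 of the 10 genes (not Relb and Birc3). In the 250 bases before the gene start, both strands were searched for the kappa B consensus, and 4 of the 8 promoters (50.0%) held at least 1 match. A match was held by 967 of all 27457 RefSeq promoters (3.52%), and by 428 of the 9696 that belong to tested genes (4.41%). The promoters with a match are those of Tnfaip3, Nfkb2, Nfkbia and Nfkbiz, given 5′ to 3′ on the gene's strand with matches in capitals. That of Tnf follows, which held no match to these letters in this window.
Tnfaip3 (chr1:15543980-15544229, minus strand): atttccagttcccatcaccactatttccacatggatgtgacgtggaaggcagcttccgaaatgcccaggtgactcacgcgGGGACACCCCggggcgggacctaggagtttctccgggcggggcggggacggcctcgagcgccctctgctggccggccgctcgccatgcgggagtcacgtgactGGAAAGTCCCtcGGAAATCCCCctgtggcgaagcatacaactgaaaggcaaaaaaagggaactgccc
Nfkb2 (chr1:255108124-255108373, plus strand): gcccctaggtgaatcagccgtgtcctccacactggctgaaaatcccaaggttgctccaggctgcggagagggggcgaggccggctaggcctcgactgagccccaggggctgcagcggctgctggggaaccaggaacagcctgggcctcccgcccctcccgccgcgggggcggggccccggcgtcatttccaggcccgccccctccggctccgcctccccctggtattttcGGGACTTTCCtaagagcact
Nfkbia (chr6:78597073-78597322, minus strand): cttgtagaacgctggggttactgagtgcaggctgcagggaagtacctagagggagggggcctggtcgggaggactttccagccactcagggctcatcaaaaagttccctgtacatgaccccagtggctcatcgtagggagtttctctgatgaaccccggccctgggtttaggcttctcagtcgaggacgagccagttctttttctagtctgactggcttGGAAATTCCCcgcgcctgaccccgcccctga
Nfkbiz (chr11:58251471-58251720, plus strand): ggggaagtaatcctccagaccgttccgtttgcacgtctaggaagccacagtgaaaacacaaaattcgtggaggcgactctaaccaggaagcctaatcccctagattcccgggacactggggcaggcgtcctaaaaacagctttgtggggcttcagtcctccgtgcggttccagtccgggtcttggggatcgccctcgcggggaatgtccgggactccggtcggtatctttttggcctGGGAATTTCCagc
Tnf (chr20:3626435-3626684, plus strand): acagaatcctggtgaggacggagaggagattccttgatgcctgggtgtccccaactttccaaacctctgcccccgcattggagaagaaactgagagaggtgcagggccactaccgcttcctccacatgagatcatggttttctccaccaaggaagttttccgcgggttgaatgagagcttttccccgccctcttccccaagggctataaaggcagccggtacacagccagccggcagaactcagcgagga

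Tnfaip3 held 3 matches, more than any other of the 8, and just 204 of all 27457 promoters held 2 or more. Its match GGGACACCCC lay 170 to 161 bases before the start on the gene strand, and GGAAAGTCCC and GGAAATCCCC lay 67 to 58 and 55 to 46 bases before it and match on the opposite strand. In Nfkb2, GGGACTTTCC ended 11 bases before the start, in Nfkbia GGAAATTCCC ended 22 bases before it and matches on the opposite strand, and in Nfkbiz GGGAATTTCC ended 4 bases before it. A match in these letters is a description of the sequence and not a measured binding site. Of the 4 genes with a match, Nfkb2, Nfkbia and Nfkbiz had ischemia values above all sham values and Tnfaip3 did not, and 0 of the 4 passed the adjusted threshold of edgeR. Of the 4 without a match, Tnfrsf1a passed, Tnfrsf1b had values above all sham values, and Tnf and Nfkb1 overlapped.

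**Figure D2:**
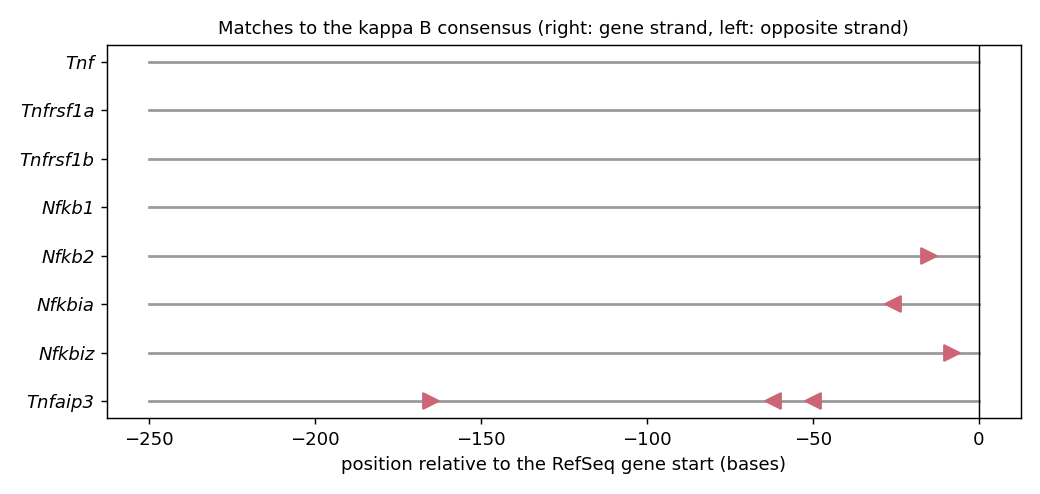
Position of matches to the kappa B consensus (triangles, pointing right for the gene strand and left for the opposite strand) in the 250 bases before the RefSeq start of 8 genes; the horizontal axis is the distance from the start in bases. The single matches of Nfkb2, Nfkbia and Nfkbiz lie within 31 bases of the start, and Tnfaip3 has 1 match farther out and 2 near the start.

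Tnf, which encodes the ligand, had the lowest mean FPKM of the 10 genes in both groups, though in sham replicate 2 Nfkbiz was lower. In the deposited table, whose genome build is not given in the sources used here, it spans bases 4855829 to 4858447 of chromosome 20 (plus strand). Sham replicates 1 to 3 had FPKM values of 0.391, 0.718 and 0.273, and ischemia replicates 1 to 3 had 0.581, 1.66 and 0.952. Ischemia replicate 1 lay below sham replicate 2, so the groups overlapped, and ischemia replicate 2 was the highest of the 6 samples. These values rest on 51, 99 and 34 counts in sham and 81, 211 and 114 counts in ischemia. EdgeR gave a log2 fold change of 1.02 ± 0.61 (SE; adjusted p 0.279), and the two-sided exact permutation test gave p = 0.2, where 3 samples against 3 cannot go below 0.1. Without ischemia replicate 2 the log2 fold change was 0.62. The table lists 4 genes whose span overlaps that of Tnf, namely RT1-CE7, RT1-CE4 and RT1-CE1 of the major histocompatibility complex on the other strand and AABR07044408 on the same strand. How reads in the overlap were counted is not given in the sources used here, so the level of Tnf is uncertain, while the other 9 genes overlap no listed gene.

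The receptors differed in how alike the ischemia animals were. Tnfrsf1a encodes TNF receptor 1, which most cells carry and which can signal both NF-kB activation and cell death. Tnfrsf1a spans bases 157864969 to 157877633 of chromosome 4 (plus strand). In FPKM, sham samples measured 23.5, 25.2 and 32.5 and ischemia samples 96.7, 111.5 and 73.4. The lowest ischemia sample was 2.26 times the highest sham sample, and the ischemia samples were 3.58, 4.12 and 2.72 times the sham mean. Mean ± SD (n = 3 in each group) was 27.0 ± 4.79 FPKM in sham against 93.9 ± 19.2 FPKM after ligation. The gene rose by 1.70 ± 0.22 (SE) on the log2 scale, at an adjusted p of 0.0272 in edgeR, and the exact permutation test gave the smallest p it can, 0.1. Without ischemia replicate 2 the log2 fold change was 1.61 and still passed (edgeR adjusted p 0.0322). The call was lost, with the log2 fold change between 1.57 and 1.81, without sham replicate 1, 2 or 3 or ischemia replicate 3 (edgeR adjusted p 0.157, 0.0819, 0.125 and 0.110).

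Tnfrsf1b encodes TNF receptor 2, which is found mainly on immune and endothelial cells and has no death domain. It spans bases 163136390 to 163167299 of chromosome 5 (minus strand). FPKM values were 3.81, 3.51 and 4.0 for sham and 6.88, 36.9 and 9.85 for ischemia samples. The sham samples lay within a factor of 1.14 of each other, and all ischemia samples lay above them, but ischemia replicate 2 stood at 9.77 times the sham mean and replicates 1 and 3 at 1.82 and 2.61 times. The fitted log2 fold change came to 2.10 ± 0.60 (SE; edgeR adjusted p 0.0786, exact permutation p 0.1), so it did not pass. It was 1.11 without ischemia replicate 2. In ischemia replicate 2 the level of Tnfrsf1a per length was 3.03 times that of Tnfrsf1b, against 14.1 and 7.46 times in ischemia replicates 1 and 3 and 6.16 to 8.11 times in sham. This ratio, like the ratios given further on, was chosen after its values were seen.

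Of the 3 NF-kB subunit genes, Relb passed the threshold and Nfkb1 and Nfkb2 did not. Nfkb1 encodes the precursor of a subunit of the canonical dimer and spans bases 240773456 to 240866689 of chromosome 2 (minus strand). Sham samples had FPKM values of 19.7, 15.9 and 20.0, and ischemia samples had 17.2, 37.2 and 22.0. Ischemia replicate 1 lay inside the sham range, and replicate 2 was far above the rest. On the log2 scale the difference was 0.36 ± 0.27 (SE; edgeR adjusted p 0.372, exact permutation p 0.4), and without ischemia replicate 2 it was 0.052.

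Nfkb2 encodes the precursor subunit that is processed in the non-canonical branch, and it spans bases 266053002 to 266059256 of chromosome 1 (plus strand). In FPKM, sham samples measured 15.0, 14.2 and 12.8 and ischemia samples 24.8, 32.3 and 20.8, with no overlap and with ischemia samples within a factor of 1.56 of each other. EdgeR gave a log2 fold change of 0.78 ± 0.20 (SE; adjusted p 0.0654, exact permutation p 0.1), and it was 0.65 without ischemia replicate 2. Nfkb2 thus did not pass the threshold, although its animals were about as alike as those of Tnfrsf1a.

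Relb, the usual partner of the processed Nfkb2 product, spans bases 80517411 to 80544825 of chromosome 1 (minus strand). FPKM values were 7.35, 7.10 and 6.44 for sham and 17.2, 18.5 and 14.5 for ischemia samples. Of the 10 genes it had the most even ischemia values, within a factor of 1.27, all above sham. Relb rose by 1.16 ± 0.19 (SE) on the log2 scale, at an adjusted p of 0.0351 in edgeR, and its exact permutation p was 0.1, the smallest possible. The log2 fold change was 1.13 without ischemia replicate 2 (edgeR adjusted p 0.0491). It was 1.15, 1.29, 1.05 and 1.21 without sham replicate 1, 2 or 3 or ischemia replicate 3, where the call was lost (edgeR adjusted p 0.160, 0.0820, 0.140 and 0.12). The level of Relb per length was 0.323 to 0.447 times that of Nfkb1 in sham and 1.0, 0.496 and 0.660 times in ischemia, with no overlap (exact permutation p = 0.1, smallest possible). The same ratio for Nfkb2 was 0.643 to 0.894 in sham and 1.45, 0.869 and 0.943 in ischemia, and it overlapped (exact permutation p = 0.2).

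Both genes of the IkB family, Nfkbia and Nfkbiz, had ischemia values above all sham values and neither passed the adjusted threshold. Nfkbia encodes IkB alpha, the cytoplasmic inhibitor that NF-kB itself induces, and spans bases 76267228 to 76270457 of chromosome 6 (minus strand). Sham samples had FPKM values of 33.8, 34.1 and 24.5, and ischemia samples had 62.1, 151.6 and 65.4. Ischemia replicates 1 and 3 were alike and replicate 2 was 2.44 times the lower of them. The fitted log2 fold change came to 1.46 ± 0.39 (SE; edgeR adjusted p 0.0675, exact permutation p 0.1). Without ischemia replicate 2 it was 0.99. Relative to Nfkb1, whose product it can hold in the cytoplasm, the level of Nfkbia per length was 1.23 to 2.15 times in sham and 3.61, 4.07 and 2.97 times in ischemia. On this ratio the ischemia samples were close to each other and did not overlap sham (exact permutation p = 0.1, smallest possible).

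Nfkbiz encodes a nuclear IkB protein that acts as a coactivator at a subset of NF-kB target genes, among them that of interleukin 6. It spans bases 47243342 to 47271487 of chromosome 11 (plus strand). In FPKM, sham samples measured 0.732, 0.516 and 0.902 and ischemia samples 1.80, 5.94 and 1.80. Ischemia replicates 1 and 3 had the same level, and replicate 2 was 3.31 times as high. On the log2 scale the difference was 2.04 ± 0.51 (SE; edgeR adjusted p 0.0594, exact permutation p 0.1). It was 1.31 without ischemia replicate 2.

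The ubiquitin regulators were the genes with the most unequal ischemia animals beside Tnfrsf1b. Birc3 encodes a ubiquitin ligase that is recruited to the receptor complex, and spans bases 6048969 to 6076598 of chromosome 8 (minus strand), next to Birc2. FPKM values were 1.59, 2.63 and 1.66 for sham and 4.49, 22.2 and 5.61 for ischemia samples, which is 2.30, 11.3 and 2.86 times the sham mean. All ischemia samples lay above all sham samples. Its log2 fold change of 2.27 ± 0.67 (SE) was the highest of the 10 genes in edgeR with all samples but did not pass (edgeR adjusted p 0.0819, exact permutation p 0.1). Without ischemia replicate 2 it was 1.28, below those of Tnfrsf1a (1.61) and Nfkbiz (1.31). The neighbour Birc2, which encodes a closely related ligase, had a log2 fold change of 0.23 ± 0.26 (SE; edgeR adjusted p 0.558), and the groups overlapped.

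Tnfaip3 encodes a ubiquitin-editing enzyme that shuts off signaling from the receptor complex, and spans bases 14402913 to 14412807 of chromosome 1 (minus strand). Sham samples had FPKM values of 2.83, 3.64 and 2.03, and ischemia samples had 2.63, 10.8 and 4.14. Ischemia replicate 1 lay below sham replicates 1 and 2, so the groups overlapped. EdgeR gave a log2 fold change of 0.88 ± 0.55 (SE; adjusted p 0.303, exact permutation p 0.3), and it was 0.18 without ischemia replicate 2. Relative to Nfkbia, the level of Tnfaip3 per length was 0.0829 to 0.107 times in sham and 0.0423, 0.0710 and 0.0633 times in ischemia. On this ratio the ischemia samples lay below all sham samples (exact permutation p = 0.1, smallest possible) although the mean of Tnfaip3 alone was higher in ischemia, at 5.84 ± 4.33 against 2.83 ± 0.81 (SD, n = 3).

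**Figure D3:**
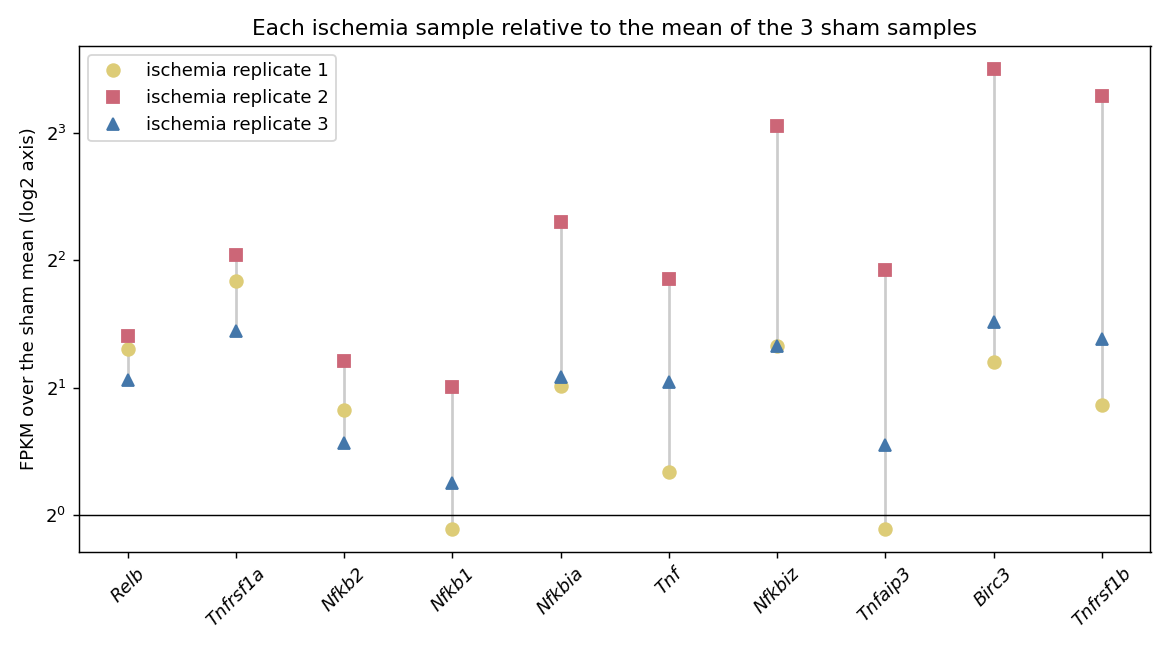
FPKM of each ischemia sample divided by the sham mean (vertical axis, log2 scale; the line at the value 1 is the sham mean), with the genes ordered from the most even to the least even ischemia animals. Relb, Tnfrsf1a and Nfkb2 stand at the even end, with ratios of highest to lowest of 1.27, 1.52 and 1.56, and Birc3 and Tnfrsf1b at the other, with 4.94 and 5.36.

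In all 10 genes ischemia replicate 2 was the highest of the 6 samples. Of all 13964 tested genes, 39.3% were highest in that sample, and 49.3% had it as the highest of the 3 ischemia samples. Summed over the 10 genes, FPKM was 108.69, 107.47 and 105.07 in sham and 234.3, 428.55 and 218.55 in ischemia, a sum to which Tnfrsf1a and Nfkbia contribute most. The same animal had the lowest summed ventricular markers of the 6 samples, though not the lowest Myl2 or Myl3, and the highest signal of white blood cell markers. Of 11 neutrophil and monocyte markers 10 were tested, and 7 were higher in edgeR and 0 lower, with a median log2 fold change of 4.91. The summed FPKM of the 11 was 24.3, 55.5 and 22.7 in sham and 537, 3763 and 549 in ischemia. S100a8 and S100a9 contribute most of it in ischemia, and Ncf1 contributes most in sham replicate 2. Ncf1 had a log2 fold change of 0.23 (edgeR adjusted p 0.830), and its groups overlapped. S100a8 and S100a9, the abundant neutrophil proteins, were among those higher (log2 fold changes 6.91 and 6.72, edgeR adjusted p 0.0311 and 0.0366). Fpr1 had counts in ischemia replicate 2 alone, and Cd177 was at 0 counts in sham replicate 2 and ischemia replicates 2 and 3. The marker sum did not overlap between the groups, like 7 of the 10 genes, and its high value in ischemia replicate 2 was shared most by Tnfrsf1b, Birc3, Tnfaip3 and Nfkbiz and least by Relb and Tnfrsf1a. Its part in the results for the 10 genes was not tested. In bulk tissue, a change in the number of cells of a type and a change in RNA per cell cannot be told apart.

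Markers of other cell types were counted in the same way. Of 8 macrophage markers 2 were higher and 0 lower, and their summed FPKM, most of which in sham came from C1qa and C1qb, overlapped between the groups, with 145.88 to 211.58 in sham and 187.09 to 303.46 in ischemia. Singly, Cd68, Csf1r, Cd163 and Mrc1 had ischemia values above all sham values, and C1qa had values below them. Adgre1, C1qb and Lyve1 overlapped, with log2 fold changes of -1.13, -0.033 and 0.072 (edgeR adjusted p 0.135, 0.893 and 0.882). Of 6 lymphocyte markers 4 were tested and 0 passed, at sums of 7.57 to 11.4 in sham and 12.5 to 17.8 in ischemia, and Ms4a1 was at 0 counts in sham replicate 1. Of 5 endothelial and 4 fibroblast markers 0 passed, at sums of 146.46 to 152.7 and 643.37 to 2052.1 in sham and 149.72 to 168.55 and 251.31 to 651.23 in ischemia. All 4 fibroblast markers had negative log2 fold changes (median -1.59), with Col1a1 and Col3a1 below all sham values, and the endothelial marker Flt1 (0.73) lay above all sham values. Their part in the levels of Tnfrsf1b, which immune and endothelial cells carry, was not tested.

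**Figure D4:**
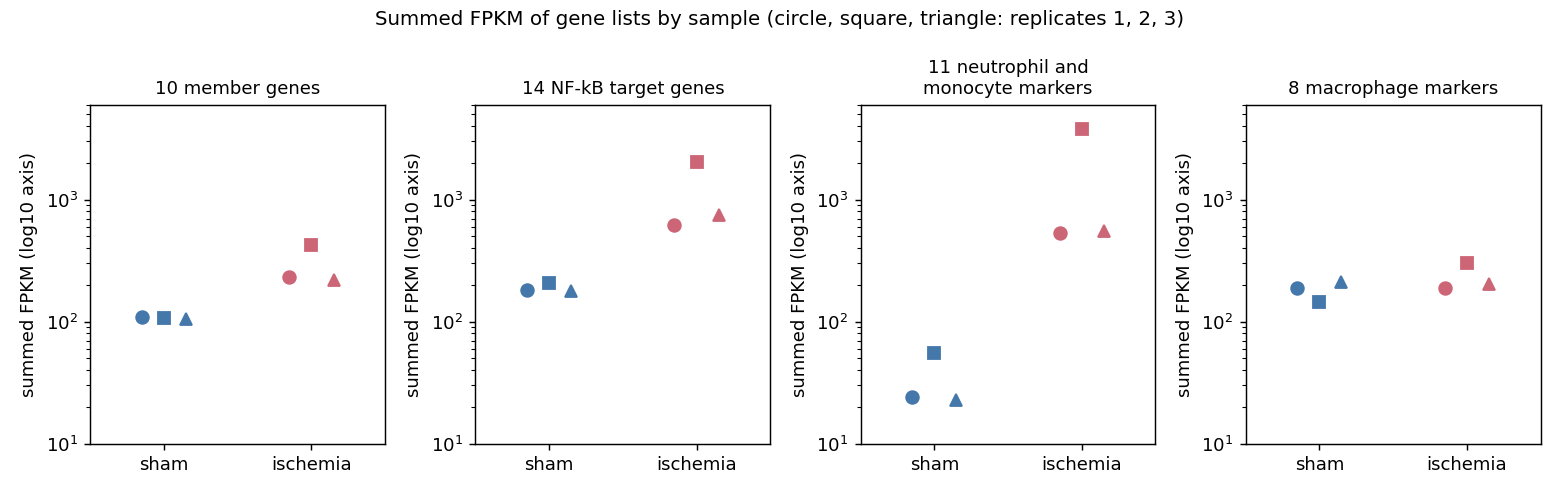
Summed FPKM per sample (vertical axes, log10 scale) of the 10 genes, 14 NF-kB target genes, 11 neutrophil and monocyte markers and 8 macrophage markers, with circles, squares and triangles for replicates 1, 2 and 3. In each panel the highest point is ischemia replicate 2, and only the macrophage panel shows groups that overlap.

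The other genes of the pathway were counted from a list of 38 genes, of which 35 were tested. Of these 5 were higher and 0 lower in edgeR, 29 had a positive log2 fold change, the median was 0.53, and 19 had ischemia values above all sham values. Over all tested genes 5.18% were higher, 49.9% were positive and 23.6% lay above all sham values. The 5 pathway genes that were higher encode an NF-kB subunit, a nuclear coactivator and proteins that end the response. Rel, a subunit gene active in immune cells, rose by 2.68 ± 0.47 (SE; edgeR adjusted p 0.0366), with 47, 56 and 62 counts in sham and 259, 635 and 247 in ischemia. Bcl3, a nuclear IkB protein that acts as a coactivator, rose by 2.40 ± 0.27 (SE; edgeR adjusted p 0.0272), with 496, 641 and 558 counts in sham and 3025, 4351 and 2318 in ischemia. Zfp36, which speeds the decay of Tnf mRNA, rose by 1.69 ± 0.33 on the log2 scale, and Zc3h12a, an RNase that degrades inflammatory mRNAs, by 1.22 ± 0.27 (SE; edgeR adjusted p 0.0422 and 0.0492). Otulin, which removes linear ubiquitin chains, rose by 0.80 ± 0.17 (SE; edgeR adjusted p 0.0477). Without ischemia replicate 2 just 2 of these pathway genes passed, without ischemia replicate 1 there were 9, and without any 1 of the other samples 0.

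By role, all 6 further subunit and IkB family genes (Rela, Rel, Nfkbib, Nfkbie, Nfkbid and Bcl3) had ischemia values above all sham values, against 23.6% of all tested genes. The same held for Nfkb2, Relb, Nfkbia and Nfkbiz, while the values of Nfkb1 overlapped. Rela, the other subunit of the canonical dimer, had a log2 fold change of 0.22 ± 0.16 (SE; edgeR adjusted p 0.366), close to that of Nfkb1. Among ligands and their processing, 0 of 2 tested genes passed: Ltb, the neighbour of Tnf on chromosome 20 that encodes lymphotoxin beta, had 2.0 ± 0.55 and Adam17, the protease that releases TNF from the cell surface, 0.83 ± 0.31 (SE; edgeR adjusted p 0.0725 and 0.130). Of 8 adaptors 0 passed, with Ripk1 highest at 0.78 ± 0.29 and Traf5 lowest at -1.02 ± 0.36 (SE; edgeR adjusted p 0.129 and 0.114). Of 7 tested kinases and their partners 0 passed, with Ikbkb highest at 0.67 ± 0.20 and Map3k7 lowest at -1.09 ± 1.58 (SE; edgeR adjusted p 0.0846 and 0.651). The value of Map3k7 rests on 0 counts in ischemia replicate 3 against 1742 and 2430 in the other ischemia samples. The table's own annotation gave a like picture: of 101 tested genes in the TNF signaling pathway, which counts 7 of the 10 genes, 18 were higher and 0 lower with a median of 0.55, and of 83 in the NF-kappa B pathway, which counts 8 of them, 12 were higher and 0 lower with a median of 0.61. The shares over all tested genes were 5.18% higher and 1.53% lower, with a median of -0.0015.

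**Figure D5:**
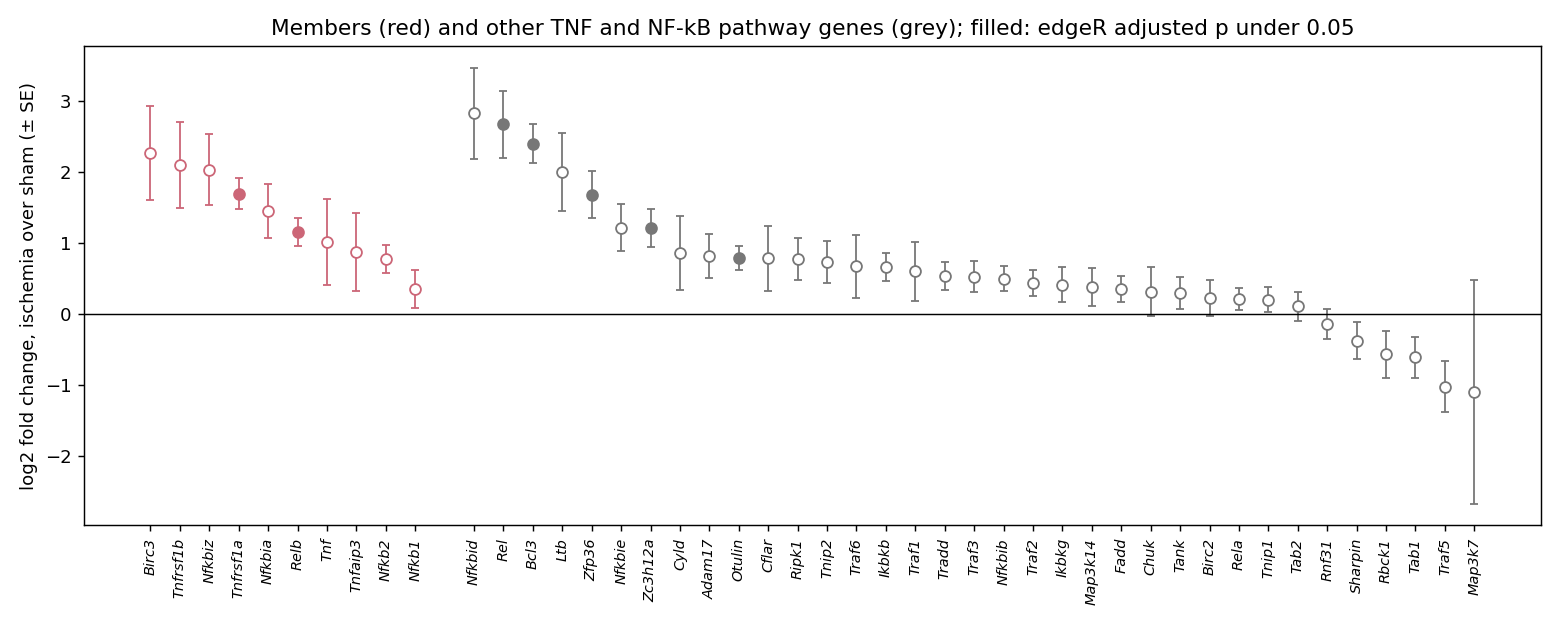
Log2 fold change of ischemia over sham (vertical axis; points with SE from edgeR) of the 10 genes (red) and of 35 other tested TNF and NF-kB pathway genes (grey), each ordered from high to low; filled points had an edgeR adjusted p under 0.05. All 10 red points lie above 0, from 0.36 to 2.27, and 29 of the 35 grey points do.

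A list of 14 genes that NF-kB is known to switch on had a larger median log2 fold change than the 10 genes. Genes for chemokines, adhesion molecules and cytokines are among them. The list was chosen with earlier results of these data known, so the size of this contrast depends on the choice. Of 14 target genes 7 were higher and 0 lower in edgeR, with a median log2 fold change of 3.04 against 1.31 for the 10 genes, and 11 had ischemia values above all sham values. Among all tested genes 5.18% were higher and 23.6% lay above all sham values. The chemokine genes Cxcl2, Ccl20, Ccl2 and Cxcl1, which attract white blood cells, rose by 8.96, 7.56, 5.92 and 5.68 on the log2 scale (edgeR adjusted p 0.0361, 0.0248, 0.0278 and 0.0291). Cxcl2 was unequal between ischemia animals, with 13, 11 and 19 counts in sham and 946, 21031 and 1789 in ischemia. In FPKM, ischemia replicates 1 and 3 were 62.3 and 137 times the sham mean, and ischemia replicate 2 was 1523 times. The adhesion genes Sele and Icam1 rose by 3.56 and 1.32 and the stress response gene Ier3 by 2.52 (edgeR adjusted p 0.0311, 0.0450 and 0.0404). Il6 had 0, 8 and 7 counts in sham and 164, 10265 and 174 in ischemia, and its edgeR adjusted p was 0.0613. Vcam1 and Irf1 had the lowest values of the targets (-0.71 and -0.0040), and neither passed (edgeR adjusted p 0.381 and 0.992). In 13 of the 14 targets ischemia replicate 2 was the highest ischemia sample, and the exception was Ccl20, whose counts of 6162, 1636 and 2050 were highest in ischemia replicate 1. Without ischemia replicate 1, 10 targets passed, without ischemia replicate 2 again 7, and without any 1 of the other samples 0. Promoters of 6 of 12 matched targets (50.0%) and of 7 of 32 matched pathway genes (21.9%) held the kappa B consensus.

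The genes whose log2 CPM followed those of Tnf most closely over the 6 samples were Rtp3, Cnot4, Mir7a1, Sinhcaf and Adprm, with Pearson correlations of 0.994, 0.990, 0.987, 0.983 and 0.983. Of 12206 genes compared, 196 had a correlation above 0.9, and all share the libraries, their depth and the grouping into sham and ischemia. Among the other 9 genes, Tnfaip3 and Birc3 were nearest to Tnf (0.935 and 0.901) and Tnfrsf1a farthest (0.651). Nfkbia and Birc3 followed each other at 0.978, Tnfrsf1b and Birc3 at 0.972, Relb and Nfkb2 at 0.965 and Relb and Tnfrsf1a at 0.958, while Relb and Nfkb1 were at 0.450.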

How the data were processed

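RNA sequencing libraries of 3 sham and 3 ischemia samples were made with a stranded total RNA kit. The authors deposited raw read counts and FPKM for 32623 genes in 1 table, in which genes without reads have an FPKM of 0.0001. The submitters' processing notes name STAR and HTSeq; their versions and settings, the genome build and the annotation are not given in the sources used here. Reads of overlapping or near-identical genes could have been lost or split, which makes such values uncertain. Each column of sample values matched 1 sample label, with 0 left over, and groups were taken from the labels.

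Testing was limited to the 13964 genes whose FPKM averaged 0.5 or more. The deposited counts were scaled by the trimmed mean of M-values, and the groups were compared, with no covariates, by the two-sided edgeR quasi-likelihood test, with Benjamini-Hochberg adjustment over all tested genes and a threshold of 0.05. SE was derived from the F statistic. The procedure was tested on simulated data. Single FPKM values were compared with the two-sided exact permutation test, whose smallest p was 0.1. Fold changes of gene lists were summarised by counts and medians, with no test of the list. Total counts ranged from 68529126 to 79591989; the level given for 3 counts covers counting error only, while SE and SD include the spread between samples. Matches to the kappa B consensus were searched in RefSeq promoter sequences of GRCr8, a build not mixed with the coordinates of the deposited table.

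The 10 genes, the lists and the tests were chosen with earlier results of these data known. Named were the 10 genes, the genes of the pathway and target lists past the threshold or, in a role list without one, the highest and lowest, cell type markers, and the 5 genes most correlated with Tnf. Birc2, Rela, Il6, Vcam1, Irf1, the ratios of FPKM and the pairs of genes whose correlations are given were chosen after their values were seen. Alternatives were 3 other scalings, no filter and a minimum mean FPKM of 5, DESeq2, limma on log2(FPKM + 0.1), also after quantile normalization, and on log2(FPKM + 1), the replicate number as a block, and each sample left out. Same-numbered samples of the groups are different animals. The versions were edgeR 4.0.16, DESeq2 1.42.0 and limma 3.58.1 under R 4.3.3, with scipy 1.17.1 and matplotlib 3.10.9 under Python 3.11.15.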

Additional observations from a re-analysis of the deposited data

How the results depend on the processing

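All 10 genes kept a positive log2 fold change under each of the 16 alternatives in which they were tested. Of 157 such values 138 stayed on the same side of the threshold, 10 lost it, 9 gained it and 0 changed sign. Tnfrsf1a ranged from 1.57 to 1.81 and Relb from 1.05 to 1.29, while Tnf ranged from 0.48 to 1.64 and Tnfaip3 from 0.18 to 1.23. A mean FPKM of at least 5 left Tnf, Nfkbiz and Tnfaip3 untested.

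With DESeq2 7 of the 10 genes, 10 pathway genes and 2071 of all genes were higher, and 1 pathway gene and 1742 of all genes lower, against 2, 5, 723, 0 and 214 with edgeR, a share of higher calls of 54.3% against 77.2%. Lower genes numbered 83 with total counts, 93 without a filter and 443 after quantile normalization (64.9% higher calls), and pathway genes that were higher numbered 3 with median-ratio size factors, total counts or no filter. With total counts the median over all genes was 0.088. Leaving out each sample in turn gave 0 to 6 of the 10 genes, 0 to 9 pathway genes, 0 to 10 target genes (7 with all samples) and 0 to 1490 higher and 0 to 1115 lower of all genes. The cause was not tested.

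The replicate numbers did not pair the samples: deviations of same-numbered samples had correlations of -0.056, -0.094 and -0.20. With the replicate block edgeR called 0 of the 10, 0 pathway, 0 target, 0 higher and 0 lower genes, with an unadjusted p under 0.05 for 7 of the 10 and for 3349 of all genes, and Tnfrsf1a and Relb stood at 1.70 and 1.17 (edgeR adjusted p 0.0943 and 0.105).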
